A study of Mus musculus with 6 samples.

Results

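The genes described here encode the NF-κB transcription factor subunits, their inhibitors, the kinases, adaptors and receptors upstream of them, typical NF-κB targets, and p62 (Sqstm1) with its partner TRAF6. They were taken by symbol from a list of 41 genes, and all 41 were among the 25067 rows of the deposited table. The list was chosen with earlier results of these data known. Colon crypt organoids from C57BL/6 mice aged 8 weeks, of the genotype Prkcif/fPrkczf/f;Villin-CreERT2, were grown with B27, WNT3A, EGF, Noggin and R-spondin 1, and RNA was taken after 3 days in either 4-OH-Tamoxifen (4-OHT) or vehicle (ethanol). Each treatment had 3 libraries, with 15804709 to 26957612 reads per library. The vehicle group is labelled wild type and the 4-OHT group Prkci/Prkz-DKO (double knockout), but organoids of both groups carry the floxed alleles and the Cre transgene, which the Villin promoter drives in intestinal epithelium. No library with 4-OHT but without floxed genes or without Cre was analysed here, so loss of the 2 atypical protein kinases C (aPKCs), Cre activity and 4-OHT itself cannot be told apart. The labels do not say whether the 3 libraries of a group came from separate mice or cultures, so the p-values measure only the spread between these libraries, which may be technical.

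NF-κB is a family of dimeric transcription factors that wait in the cytoplasm bound to IκB proteins. Toll-like and interleukin-1 receptors signal through adaptors such as MYD88, the IRAK kinases and the ubiquitin ligase TRAF6 to the TAK1 and IKK kinases. Interleukin-17 and TNF receptors reach the same kinases through partly different adaptors. The kinases mark IκB for destruction and free the dimers, and the freed dimers then switch on their own inhibitors along with cytokine genes. The scaffold p62 binds TRAF6 and, through its PB1 domain, the aPKCs, and by this route aPKCs were linked to NF-κB signaling. In gut epithelium the pathway is known for its part in barrier defense and survival.

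Prkcz, which encodes PKCζ, had normalized counts of 880, 904 and 954 in vehicle and 287, 265 and 290.3 in 4-OHT replicates 1, 2 and 3. The normalized count is the number of reads on a gene divided by 1 size factor per library, and it is not corrected for gene length. The Prkcz values did not overlap, and its log2 fold change was -1.70 (SE 0.08, limma adjusted p = 3.2e-12). Prkci, which encodes PKCλ/ι, fell by 14.2% (adjusted p = 8.1e-04), and reads on the deleted exons alone were not analysed here. The 9 epithelial markers summed to 20500 to 20970 RPM (reads per 1000000 reads of the library) in vehicle and to 26360 to 28030 in 4-OHT, and the 5 colon markers to 441 to 538 and 598 to 686. In bulk RNA, fewer cells of a type and less RNA per cell cannot be told apart. Of 12 immune cell markers, which matter because immune cells also express many of the genes below, Ptprc had at most 4 reads in any library, and Cd3e, Cd4 and Cd8a had at most 2. The 12 markers together came to 9.87 to 12.2 RPM in vehicle and 7.79 to 9.39 in 4-OHT. Most of it was Cd68, which fell (log2 fold change -0.42, adjusted p = 0.015), whereas the macrophage gene Csf1r had 14, 12 and 4 reads in vehicle and 15, 17 and 26 in 4-OHT and rose (adjusted p = 0.030). Markers of plasma cells were at 0 in vehicle and at 0.052, 10.4 and 3.52 RPM in 4-OHT replicates 1, 2 and 3. The 8 Paneth and ileal markers came to 7.80 to 14.1 in vehicle and to 9.76, 60.2 and 44.1 in 4-OHT replicates 1, 2 and 3, and the 10 stromal and vessel markers to 2.28 to 3.97 in vehicle and 2.39, 4.60 and 13.8 in 4-OHT. The part of these other cells in the results was not tested, and results are also given without 4-OHT replicates 2 and 3.

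After 4-OHT, more of these genes were higher than lower. Of the 41 members, 20 rose (48.8%) and 3 fell (7.32%), and 18 did not pass the test. Over all 13210 rows tested, 43.6% passed in either direction, 22.7% as a rise and 21% as a fall, so the share of members that rose was above the background and the share that fell was below it. The test was limma on log2(normalized count + 1), with p-values adjusted over all 13210 rows and a threshold of 0.05. The median log2 fold change of the members was 0.19, against -0.01 over all rows. Changes were mostly small, and 5 members (Il18, Tnf, Tnip1, Nfkbie and Tnfaip3) rose by more than 0.5 on the log2 scale and 0 fell by as much, where 14.2% of all rows changed by that much, 6.68% as a rise and 7.51% as a fall. The values of 22 members lay higher in every 4-OHT library than in any vehicle library and those of 3 lay lower, where 26.8% and 25.3% of all rows did (52.1% in either direction). Without 4-OHT replicates 2 and 3, 18 members passed, of which 16 were higher, in a fit that assumes the single 4-OHT library varies like the vehicle libraries. In that fit 27% of all rows passed, 14.1% as a rise.

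**Figure D1:**
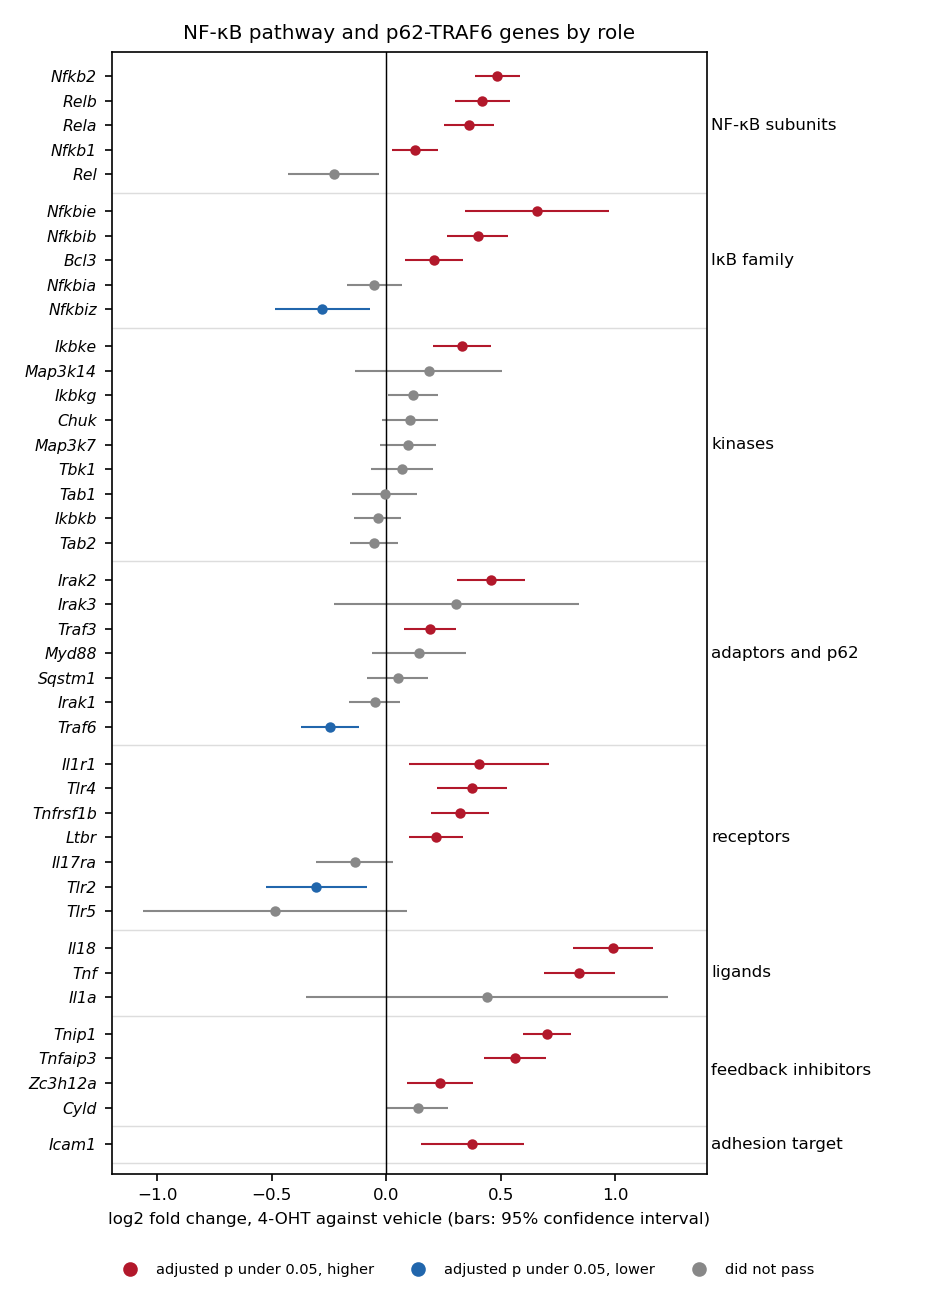
Log2 fold change of each of the 41 members, 4-OHT against vehicle, with 95% confidence intervals from limma (n = 3 libraries per group), grouped by role and colored by whether the adjusted p was under 0.05. The 2 ligands Il18 and Tnf lie farthest to the right, and 8 of the 9 kinase-complex genes lie in gray near 0.

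Among the subunits, 4 of 5 rose, where 22.7% of all rows tested did. Nfkb2, which encodes p100, the precursor of p52 and the partner of RelB in the alternative branch of the pathway, had normalized counts of 2136, 2038 and 2082 in vehicle and 2870.0, 2966 and 2916 in 4-OHT replicates 1, 2 and 3. All 3 of its 4-OHT values lay well above the vehicle values, with a log2 fold change of 0.48 (SE 0.05, adjusted p = 7.5e-08). Relb itself had 1571, 1469 and 1509.6 in vehicle and 1859, 2133 and 2102 in 4-OHT, a log2 fold change of 0.42 (SE 0.06, adjusted p = 7.2e-06). Rela, the transactivating subunit of the classical p50-RelA dimer, had 1958, 1956 and 2077 in vehicle and 2438, 2697 and 2564 in 4-OHT, a log2 fold change of 0.36 (SE 0.05, adjusted p = 1.1e-05). For both genes the groups were apart, and 4-OHT replicate 1 was the lowest of the 4-OHT libraries. Nfkb1, which encodes p105 and p50, had 2448, 2443 and 2469.7 in vehicle and 2792, 2612 and 2628 in 4-OHT. Its rise of 9.07% (log2 fold change 0.13, SE 0.05, adjusted p = 0.038) was the smallest of the 20, and it did not pass in 9 of 16 alternative analyses. Among these were the fits without any 1 library other than 4-OHT replicate 2 (adjusted p = 0.055 to 0.14) and quantile normalization (0.07, adjusted p = 0.22). Rel, which encodes c-Rel, the subunit best known from lymphocytes, was the exception in direction, with 360.1, 369.6 and 329 in vehicle and 309.9, 321 and 272 in 4-OHT. Every 4-OHT value of Rel was below every vehicle value, but its log2 fold change of -0.23 (SE 0.10) did not pass (adjusted p = 0.057), and it passed without vehicle replicate 3 (-0.28, adjusted p = 0.043), without 4-OHT replicate 2 (-0.28, adjusted p = 0.040) and in edgeR (-0.24, adjusted p = 0.043). In RPKM (RPM divided by the annotated exon length in kilobases), the vehicle levels were 34.1 ± 1.12 (SD, n = 3) for Rela, 23.8 ± 0.63 for Nfkb2, 20.4 ± 0.76 for Relb, 10.7 ± 0.06 for Nfkb1 and 2.48 ± 0.15 for Rel, so Rel had the lowest level of the 5.

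The IκB family divided. Nfkbie, which encodes IκBε, a cytoplasmic inhibitor, had 80.2, 86.5 and 71.4 normalized counts in vehicle and 124, 129 and 124 in 4-OHT replicates 1, 2 and 3. These groups were clearly apart, and the log2 fold change of 0.66 (SE 0.15, adjusted p = 0.0014) was the largest of the family. Nfkbib, which encodes the related inhibitor IκBβ, rose by 0.40 on the log2 scale (SE 0.06, adjusted p = 3.7e-05), its mean going from 823 ± 56.5 to 1084 ± 21.4 (SD, n = 3 per group). Bcl3, a nuclear IκB protein that acts with p50 and p52 dimers, rose by 0.21 (SE 0.06, adjusted p = 0.0095), but without 4-OHT replicate 3 it did not pass (0.14, adjusted p = 0.089), nor without 4-OHT replicates 2 and 3 (0.08, adjusted p = 0.43). Nfkbie was just short of the threshold in that last fit (0.64, adjusted p = 0.051). Nfkbia, which encodes IκBα and is the classical fast feedback target of NF-κB, had 2460.2, 2452 and 2218 in vehicle and 2231, 2489.8 and 2162 in 4-OHT. Its groups overlapped, and its log2 fold change was -0.05 (adjusted p = 0.50, 95% interval -0.17 to 0.07). Nfkbiz, which encodes the nuclear protein IκBζ, fell by 17.6% (log2 fold change -0.28, SE 0.10, adjusted p = 0.028), although its groups overlapped in 1 library. It did not pass without vehicle replicate 1 (-0.19, adjusted p = 0.17), vehicle replicate 2 (-0.26, adjusted p = 0.085) or 4-OHT replicate 1 (-0.20, adjusted p = 0.12), nor with quantile normalization (-0.24, adjusted p = 0.067), and it was at -0.44 (adjusted p = 0.038) without 4-OHT replicates 2 and 3.

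**Figure D2:**
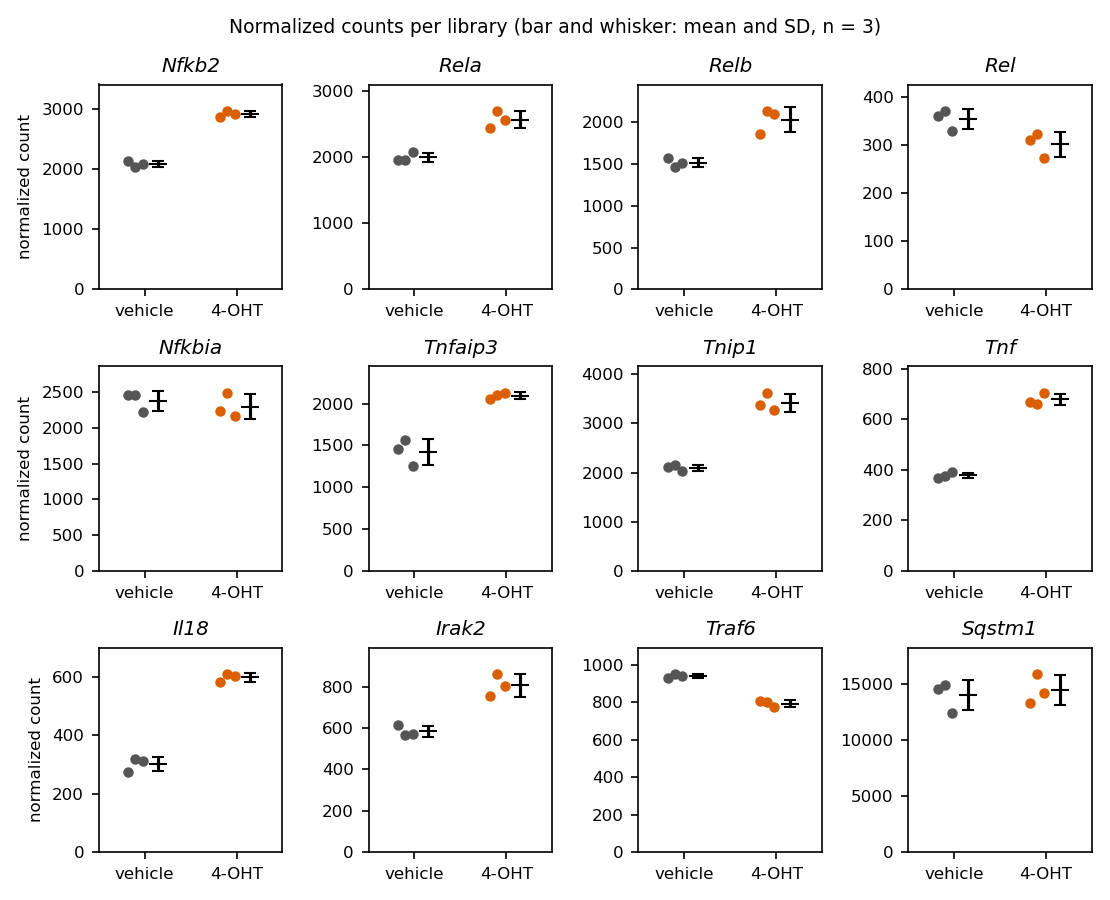
Normalized counts (linear axes from 0) of 12 members in each of the 3 vehicle and 3 4-OHT libraries, with the mean and SD of each group beside the points. The 4-OHT points of Nfkb2, Rela, Relb, Tnfaip3, Tnip1, Tnf, Il18 and Irak2 lie above all vehicle points, those of Rel and Traf6 lie below, and those of Nfkbia and Sqstm1 overlap.

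Among the 9 genes of kinases and their partners only Ikbke passed (11.1%), against 43.6% of all rows tested. Ikbke encodes IKKε, a kinase related to TBK1 that acts in interferon and NF-κB signaling. It had 1066 ± 65.8 in vehicle and 1341 ± 65.6 in 4-OHT (SD, n = 3 each, log2 fold change 0.33, SE 0.06, adjusted p = 1.9e-04). The 3 components of the IKK complex had log2 fold changes of 0.10 for Chuk (IKKα, adjusted p = 0.16, 95% interval -0.02 to 0.23), -0.04 for Ikbkb (IKKβ, adjusted p = 0.57, 95% interval -0.14 to 0.07) and 0.12 for Ikbkg (the scaffold NEMO, adjusted p = 0.079, 95% interval 0.01 to 0.23). Ikbkg passed without 4-OHT replicate 2 (0.14, adjusted p = 0.044). Map3k7, which encodes TAK1, and the genes of its partners Tab1 and Tab2 had log2 fold changes of 0.09, -0.01 and -0.05. Tbk1 was at 0.07 and Map3k14, which encodes NIK, the kinase of the alternative branch, at 0.19 with a wide 95% interval of -0.14 to 0.51. The 3 intervals of the IKK genes lie wholly below the log2 rise of Nfkb2 (0.48). The level of Map3k14 in vehicle was only 0.76 ± 0.06 RPKM (SD, n = 3).

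The p62-TRAF6 pair did not move together. Sqstm1, which encodes p62, had normalized counts of 14537, 14920.1 and 12435 in vehicle and 13274, 15849 and 14211 in 4-OHT replicates 1, 2 and 3. The groups overlapped, the highest and the lowest values being 4-OHT replicate 2 and vehicle replicate 3, and the log2 fold change was 0.05 (SE 0.06, adjusted p = 0.57, 95% interval -0.08 to 0.18). Its direction turned in 4 of the 16 alternatives. At 218 ± 21.2 RPKM in vehicle (SD, n = 3), Sqstm1 had the highest level per length of the 41 members. Traf6 had 927, 948 and 939 in vehicle and 805, 798 and 772 in 4-OHT. In GRCm38 coordinates Sqstm1 lies on chromosome 11 (50199366 to 50210827, minus strand) and Traf6 on chromosome 2 (101678429 to 101701669, plus strand). The Traf6 values of the 2 groups were apart, and Traf6 fell by 15.6% (log2 fold change -0.25, SE 0.06, adjusted p = 0.0024, 95% interval -0.37 to -0.12). Without 4-OHT replicates 2 and 3 the fall of Traf6 was about as large (-0.22) but just missed the threshold (adjusted p = 0.052).

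Among the other adaptors, Irak2, a kinase of the interleukin-1 and Toll-like receptor pathway that sustains NF-κB signaling, rose from 585 ± 26.8 to 805 ± 53.6 (SD, n = 3 each, log2 fold change 0.46, SE 0.07, adjusted p = 2.7e-05). Its relative Irak1 had a log2 fold change of -0.05 (adjusted p = 0.48). Irak3, which encodes the inhibitory IRAK-M, had 0.31 (adjusted p = 0.36, 95% interval -0.23 to 0.84) on 31.1 to 61.0 normalized counts per library, and 0.56 (adjusted p = 0.087) without 4-OHT replicate 2. Myd88, the adaptor of most Toll-like receptors, was at 0.14 (adjusted p = 0.25), and at 0.22 (adjusted p = 0.11) without that library. Traf3, a brake on the alternative branch that promotes loss of NIK, rose by 0.19 (SE 0.05, adjusted p = 0.0073), but not past the threshold without vehicle replicate 2 (0.16, adjusted p = 0.056).

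Receptor genes changed in both directions. Tlr4, the lipopolysaccharide receptor, rose from 564 ± 24.0 to 732 ± 59.1 (SD, n = 3 each, log2 fold change 0.37, SE 0.07, adjusted p = 3.7e-04). Tnfrsf1b, which encodes TNF receptor 2, rose from 1319 ± 98.9 to 1646 ± 66.0 (log2 fold change 0.32, SE 0.06, adjusted p = 2.2e-04). Ltbr, the lymphotoxin β receptor, which feeds the alternative branch, rose by 0.22 (SE 0.06, adjusted p = 0.0039), and was just outside the threshold without 4-OHT replicates 2 and 3 (0.23, adjusted p = 0.053). Il1r1, the interleukin-1 receptor, rose by 0.41 (SE 0.15, adjusted p = 0.031), but without vehicle replicate 3 it did not pass (0.32, adjusted p = 0.12), nor without 4-OHT replicate 2 (0.33, adjusted p = 0.12) or 4-OHT replicate 3 (0.35, adjusted p = 0.11), and it was at 0.15 (adjusted p = 0.64) without both. With DESeq2 on the recovered reads it just missed the threshold (0.40, adjusted p = 0.056). Tlr2, the receptor for bacterial lipoproteins, went the other way, from 258 ± 23.4 to 208 ± 1.44 (SD, n = 3 each, log2 fold change -0.30, SE 0.11, adjusted p = 0.024). This fall did not pass without vehicle replicate 3 (-0.23, adjusted p = 0.12), 4-OHT replicate 3 (-0.30, adjusted p = 0.055) or both 4-OHT replicates 2 and 3 (-0.30, adjusted p = 0.16), nor with quantile normalization (-0.25, adjusted p = 0.058). Tlr5, the flagellin receptor, had 41.1, 47.5 and 52.1 in vehicle and 23.8, 52.9 and 28.5 in 4-OHT replicates 1, 2 and 3. Its 4-OHT replicate 2 stood with the vehicle libraries, and Tlr5 passed only without it (-0.82, adjusted p = 0.021) or without both 4-OHT replicates 2 and 3 (-0.94, adjusted p = 0.038), against -0.49 (adjusted p = 0.16) with all libraries. Il17ra, the shared interleukin-17 receptor chain, was at -0.14 (adjusted p = 0.18).

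The largest rises were those of 2 cytokine genes. Il18, an epithelial cytokine of the interleukin-1 family, had normalized counts of 273, 319 and 312 in vehicle and 582, 608 and 603 in 4-OHT replicates 1, 2 and 3. The groups were far apart, with a 1.98-fold rise (95% interval 1.76 to 2.24, log2 fold change 0.99, SE 0.08, adjusted p = 1.4e-08). Tnf, which encodes the cytokine TNF and is itself an NF-κB target, had 369, 375 and 389.8 in vehicle and 670.5, 662 and 706 in 4-OHT. Its values were tight within each group, and it rose by 79.5% (95% interval 61.3% to 99.7%, log2 fold change 0.84, SE 0.07, adjusted p = 2.0e-08). Il1a, which encodes the alarmin interleukin-1α, had the lowest level per length of the members (0.41 ± 0.05 RPKM in vehicle, SD, n = 3), and its log2 fold change of 0.44 (adjusted p = 0.37, 95% interval -0.35 to 1.23) had an interval wide enough to hold a fall as well as a large rise. Without 4-OHT replicate 1 it was at 0.80 (adjusted p = 0.088). Across all 16 alternatives Il18 lay between 0.92 and 1.03 and Tnf between 0.82 and 0.87 on the log2 scale.

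Of the 4 genes listed as feedback inhibitors, which limit the pathway, 3 rose, where 22.7% of all rows tested did. Tnip1, which encodes ABIN1, a ubiquitin-binding partner of A20, had 2104, 2161 and 2037 in vehicle and 3363, 3622 and 3275 in 4-OHT replicates 1, 2 and 3. No value overlapped, and the log2 fold change was 0.70 (SE 0.05, adjusted p = 1.5e-09). Tnfaip3, which encodes A20 itself, the ubiquitin-editing enzyme that acts on TRAF6 and RIPK1, had 1459, 1561 and 1257 in vehicle and 2052, 2102 and 2129 in 4-OHT, a log2 fold change of 0.56 (SE 0.06, adjusted p = 7.8e-07). All vehicle libraries of Tnfaip3 lay below all 4-OHT libraries, and the vehicle libraries differed more among themselves (SD 155) than the 4-OHT libraries (SD 39.1). Zc3h12a, which encodes Regnase-1, a nuclease that degrades cytokine transcripts, rose by 0.23 (SE 0.07, adjusted p = 0.0093), and Cyld, a deubiquitinase of the pathway, was at 0.14 (adjusted p = 0.091). Icam1, which encodes an adhesion molecule and is a common readout of NF-κB activity, rose by 0.38 (SE 0.11, adjusted p = 0.0074). It did not pass without vehicle replicate 2 (0.29, adjusted p = 0.051) or 4-OHT replicate 1 (0.25, adjusted p = 0.056), and it was at 0.62 (adjusted p = 0.0049) when 4-OHT replicate 1 stood alone for its group.

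**Figure D3:**
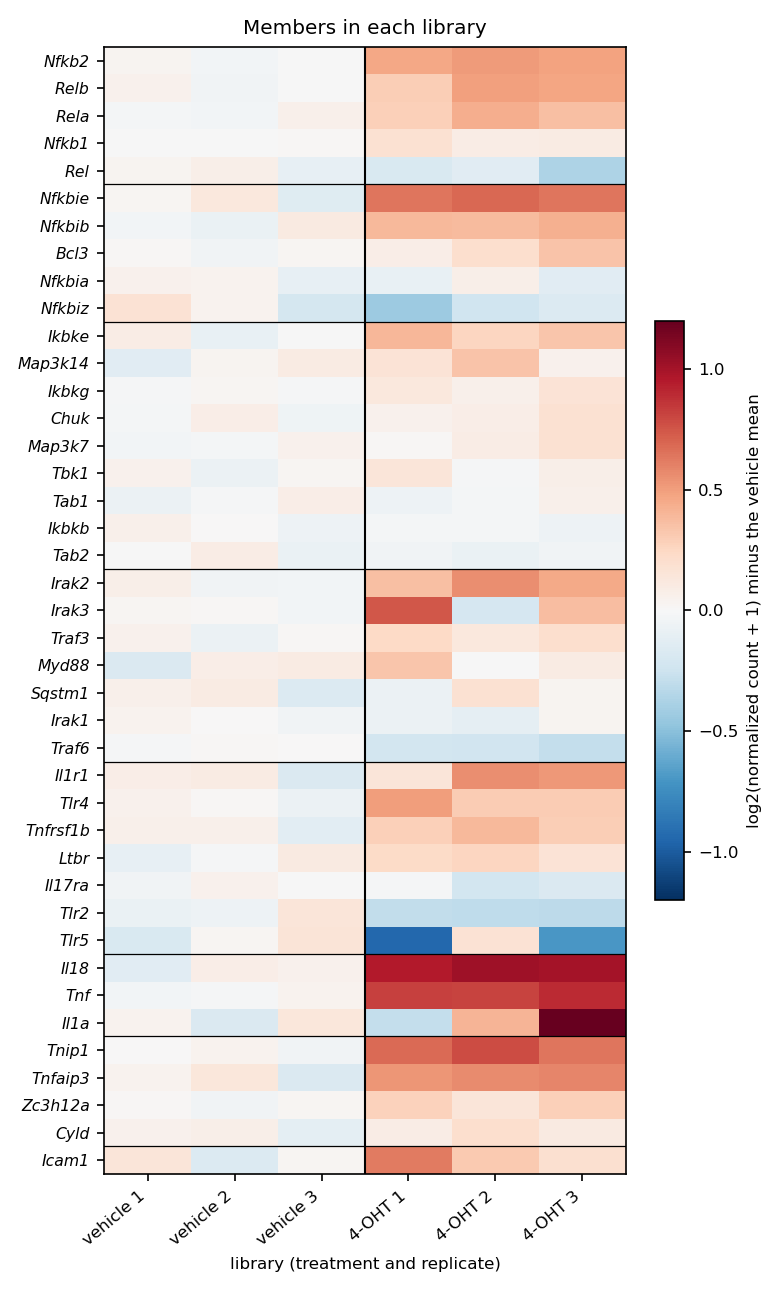
Each member (rows, ordered by role and then by log2 fold change) in each library (columns), as log2(normalized count + 1) minus the mean of the 3 vehicle libraries, from blue (lower) to red (higher). The rises of Il18, Tnf, Tnip1, Nfkbie, Tnfaip3, Nfkb2 and Irak2 are present in all 3 4-OHT libraries, while Il1a, Irak3 and Tlr5 differ between them.

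Because several members are both NF-κB components and NF-κB targets, their promoters were searched for κB-type motifs. RefSeq promoters (GRCm38.p6, 250 bases before to 50 after the start site) were found for 34 of the 41 members by symbol. The motifs were GGGNN (N being any base) followed by TTTCC or by TTCCC, on both strands, and a match to one can overlap a match to the other. At least 1 match was present in 10 of the 34 genes (29.4%), against 4.61% of the 10057 tested genes and 3.73% of all 27025 genes in the promoter table, and the members include genes put on the list because they are NF-κB targets. Of the 10 genes with a match, 5 rose (Bcl3, Nfkb2, Tnfaip3, Tnip1 and Traf3), 1 fell (Tlr2) and 4 did not pass (Cyld, Map3k7, Nfkbia and Rel). Of the 24 without a match, 12 rose, 1 fell and 11 did not pass, and over all rows tested 22.7% rose. Only exact matches to these patterns were counted, so a gene without a match can still hold a related sequence. The counts thus do not compare genes with and without a κB site. Shown here are the 200 bases before the start site of 3 genes with a match that rose (Nfkb2, Tnip1 and Tnfaip3) and of 2 with a match that did not pass (Nfkbia and Rel), each on the gene's own strand from 5′ to 3′, with the matches in capitals.
Nfkb2, chr19:46304537-46304736 (plus strand): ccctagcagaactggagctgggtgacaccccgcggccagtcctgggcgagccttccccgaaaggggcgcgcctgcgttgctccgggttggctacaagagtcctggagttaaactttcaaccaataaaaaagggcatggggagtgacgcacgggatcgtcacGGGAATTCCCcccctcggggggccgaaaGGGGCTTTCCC
Tnip1, chr11:54962941-54963140 (minus strand): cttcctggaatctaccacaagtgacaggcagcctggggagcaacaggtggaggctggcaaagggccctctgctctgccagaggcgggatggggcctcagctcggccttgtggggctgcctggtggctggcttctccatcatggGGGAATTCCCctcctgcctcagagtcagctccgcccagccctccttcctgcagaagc
Tnfaip3, chr10:19015411-19015610 (minus strand): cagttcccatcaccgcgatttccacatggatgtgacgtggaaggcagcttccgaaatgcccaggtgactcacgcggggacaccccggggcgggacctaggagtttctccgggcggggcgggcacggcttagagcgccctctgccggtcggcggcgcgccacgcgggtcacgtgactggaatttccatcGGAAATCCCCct
Nfkbia, chr12:55492648-55492847 (minus strand): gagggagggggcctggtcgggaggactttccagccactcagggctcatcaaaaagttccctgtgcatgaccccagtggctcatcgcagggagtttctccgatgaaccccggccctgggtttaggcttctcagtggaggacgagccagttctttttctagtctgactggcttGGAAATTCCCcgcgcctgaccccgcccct
Rel, chr11:23770970-23771169 (minus strand): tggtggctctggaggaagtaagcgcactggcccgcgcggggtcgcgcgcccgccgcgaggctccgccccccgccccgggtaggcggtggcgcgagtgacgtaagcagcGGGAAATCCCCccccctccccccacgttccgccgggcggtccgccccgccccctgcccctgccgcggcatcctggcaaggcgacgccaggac
The 5 promoters each hold their match within 100 bases of the start site, at -57 to -48 in Tnip1, -29 to -20 in Nfkbia and -12 to -3 in Tnfaip3. Nfkb2 holds 2 separate stretches, at -39 to -30 and at -11 to -1, the latter made of 2 overlapping matches. The table holds 3 promoters for Nfkb2, of which the first is shown, and the other 2 both cover 1 further match, at 11 to 20 after one start and at -225 to -216 before the other. Tnfaip3 has 2 promoters in the table, and the one not shown holds no match. In Rel 2 overlapping matches span -92 to -82. Genes with a match this near to the start thus included both the clear rise of Nfkb2 (0.48) and the log2 fold changes of -0.05 for Nfkbia and -0.23 for Rel. A match is a description of the letters in this window and shows no binding.

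Beyond the 41 members, 54 further receptors, adaptors and regulators were listed and 46 were tested. Of these, 17 rose (37.0%), 3 fell (6.52%) and 26 did not pass. The list passed about as often (43.5%) as all rows tested (43.6%). Over all rows 22.7% rose and 21% fell, so the list differed in direction only. The median log2 fold change of the list was 0.14. Il18r1, which encodes a chain of the interleukin-18 receptor, rose from 235 ± 6.03 to 615 ± 47.5 (SD, n = 3 per group, log2 fold change 1.38, SE 0.09, adjusted p = 2.2e-10), so that Il18 and a chain of its receptor were both higher. Il1rl1, which encodes the interleukin-33 receptor ST2, and Cd40, a TNF receptor family member, rose by 1.21 (adjusted p = 0.0035) and 1.03 (adjusted p = 8.3e-04) from low levels, and without 4-OHT replicates 2 and 3 Il1rl1 did not pass (0.92, adjusted p = 0.15). Il17rb, a chain of the interleukin-25 receptor, fell by 1.30 on the log2 scale (adjusted p = 0.0030). Without those 2 libraries 13 genes of the list passed, of which 11 were higher, while the rows that passed over the whole table went from 5765 to 3569.

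Of 32 typical NF-κB target genes outside the members, 25 were tested. Of these, 12 rose (48%), 3 fell (12%) and 10 did not pass, with a median log2 fold change of 0.58. In either direction 60% of the list passed, against 43.6% of all rows tested, 22.7% as a rise and 21% as a fall. All 12 that rose did so by more than 0.5, as 6.68% of all rows tested did. The list was chosen with earlier results of these data known, so its share of rises is not independent of them. Ptgs2, which encodes the prostaglandin enzyme COX-2, had 605, 719 and 661 in vehicle and 1932, 1951 and 1859 in 4-OHT replicates 1, 2 and 3 (log2 fold change 1.53, SE 0.06, adjusted p = 1.5e-12). Cxcl16, a membrane-bound chemokine, had 1930.3, 2007 and 1913 in vehicle and 3702, 4273 and 3825 in 4-OHT (log2 fold change 1.01, SE 0.05, adjusted p = 2.8e-11). The colony-stimulating factor genes Csf2 (1.93, adjusted p = 2.2e-06) and Csf1 (1.19, adjusted p = 5.2e-06), Il23a (1.62, adjusted p = 7.6e-06), the protease gene Plau (1.59, adjusted p = 7.3e-10) and Nos2, which encodes inducible nitric oxide synthase (1.38, adjusted p = 3.6e-08), rose as well. All 7 passed without 4-OHT replicates 2 and 3 too. The complement gene C3 rose by 1.33 (adjusted p = 0.011) with all libraries, but did not pass without vehicle replicate 3 (0.97, adjusted p = 0.062), 4-OHT replicate 2 (1.13, adjusted p = 0.068), 4-OHT replicate 3 (1.17, adjusted p = 0.058) or both of these 4-OHT replicates (0.60, adjusted p = 0.46). The 3 that fell were Pigr, Sod2 and Duox2 (-0.32, -0.17 and -0.23), named after their values were seen, and Sod2 and Duox2 overlapped between the groups.

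Another list held 20 genes for p62 relatives, autophagy proteins that p62 binds and aPKC partners. Of these, 11 rose (55%), 3 fell (15%, of which 2 are the targeted Prkci and Prkcz) and 6 did not pass. The median log2 fold change was 0.15. In either direction 70% of this list passed, against 43.6% of all rows tested, 22.7% as a rise and 21% as a fall. That 70% counts the 2 targeted genes, so it overstates the share among the rest of the list. The largest rise was that of Map1lc3a, which encodes a form of LC3, the autophagosome protein that p62 binds, from 413 ± 60.1 to 911 ± 144 (SD, n = 3 each, log2 fold change 1.14, SE 0.11, adjusted p = 6.6e-08). Without 4-OHT replicates 2 and 3 it was at 0.86 (adjusted p = 0.0013), and 7 genes of the list were then higher past the threshold, in a fit that passed fewer rows over the whole table as well. Keap1, the p62-bound regulator of NRF2, was the third that fell (-0.26, adjusted p = 2.8e-04).

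**Figure D4:**
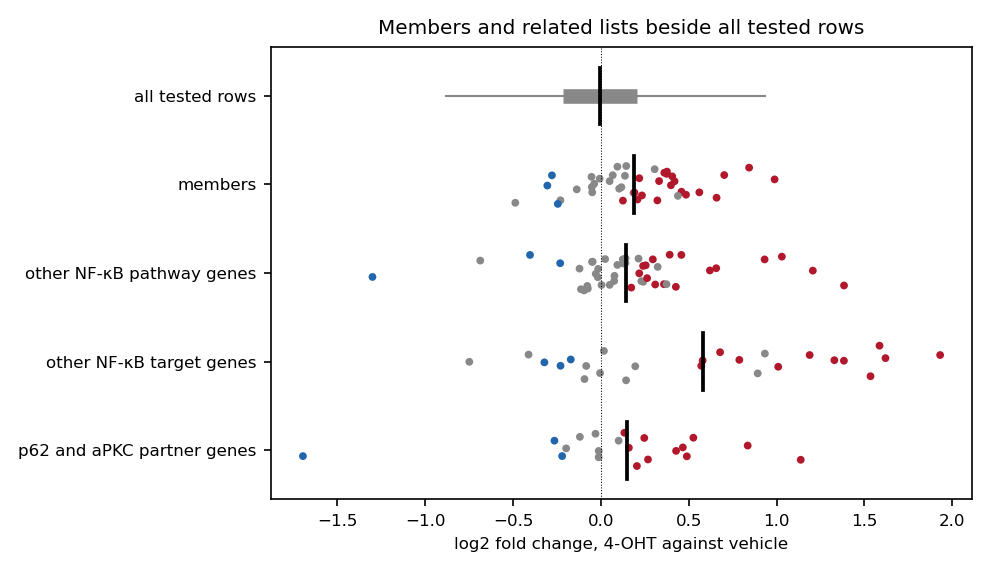
Log2 fold changes of the members and of the 3 related lists (points, 1 per tested gene, colored red for a rise, blue for a fall and gray where the test was not passed), with the median of each as a black bar. The top line shows all 13210 tested rows, with the gray bar from the 25th to the 75th percentile (-0.22 to 0.20) and the thin line spanning the middle 95% of rows (-0.88 to 0.93). The target genes have the highest median, in a list chosen with earlier results of these data known.

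Without strand information reads on bases shared with a neighbor cannot be assigned. In the GENCODE vM21 annotation 13 members share exon bases with any other gene, and 6 of them with another protein-coding gene. For Sqstm1 this is 17.3% of its exon bases, shared with Mrnip, which had a mean normalized count of 43.7. For Nfkb2 it is 6.52%, shared with Psd at a mean of 124. The neighbors of the other 4 were mostly higher than the members themselves. Irak3 shares 5.22% of its exon bases with Tmbim4 (mean 1091), Myd88 shares 11.3% with Acaa1a (mean 1417), and Ikbkg shares 5.15% with G6pdx (mean 3111). Nfkbib shares 1.94% with Sirt2 (mean 1014) and 14.5% with Ccer2 (mean 0.20). With genes not annotated as protein-coding, the largest shares were 11.7% for Icam1 (Gm47079), 11.6% for Nfkb2 (AC114539.1) and 11.25% for Il1a (Gm14023). Gm14023 had a mean of 9.86, and Il1a itself a vehicle mean of 15.4. How many reads of these members come from their neighbors was not tested.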

How the data were processed

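RNA from 6 libraries was sequenced. The deposited values are a signal per gene: per the labels and the table itself, the authors scaled each library's reads per gene with a size factor (normalized counts). The submitters' processing notes name STAR, DESeq2 and the build GRCm39. The counting tool and annotation are not given in the sources used here. All values (100%) were whole multiples of 1 step per library within 0.1 reads, so whole reads could be recovered. The 13210 rows averaging 10 or more normalized counts were compared with limma-trend (limma 3.58.1, R 4.3.3) on log2(normalized count + 1), which understates the change of low genes, with Benjamini-Hochberg adjustment. All 41 members passed the filter. Alternatives were other pseudocounts, filters and scalings, the replicate block, libraries left out, edgeR 4.0.16 and DESeq2 1.42.0. Statistics were checked on simulated data in which far fewer rows changed than here, each by more than most members did. That check does not cover calls of small changes. Levels per length used the union of exons in GENCODE vM21 (GRCm38), which is not the submitters' build. Members and lists were chosen with earlier results of these data known. Per-library values are given for members past the threshold by at least 0.5 on the log2 scale, for Sqstm1, Traf6, Tnfaip3 and the NF-κB subunits, and of other lists genes past it by at least 1 are named. The per-library values of Nfkbia and Tlr5, and Csf1r, Cd68, Keap1, Pigr, Sod2 and Duox2, were added after seeing the data. Repeated libraries differed by 3.55 to 6.41 times counting variance (chi-square per degree of freedom), so none is a copy.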

Additional observations from a re-analysis of the deposited data

How the results depend on the processing

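Of the 23 members that passed, 13 passed in every one of the 16 alternatives run. Over 653 values of single members, 609 had the same call and direction, 30 lost the call, 6 gained one and 8 reversed, none of these past the threshold. The reversed log2 fold changes were those of Sqstm1 with quantile normalization (-0.071), without vehicle replicate 3 (-0.032), without 4-OHT replicate 2 (-0.019) and without both 4-OHT replicates 2 and 3 (-0.069), of Tab1 without vehicle replicate 3 (0.032), 4-OHT replicate 1 (0.018) or 4-OHT replicate 2 (0.0028) and of Il1a without both 4-OHT replicates 2 and 3 (-0.29). When each library was left out, Tab1 ranged from -0.042 to 0.032 and Sqstm1 from -0.032 to 0.11. The cause was not tested. Members passing numbered between 18 and 25 over the alternatives, with 16 to 20 higher. Those that fell numbered 1 with quantile normalization and 2 to 5 when each library was left out. Without both 4-OHT replicates 2 and 3, which leaves 4 libraries, 3569 rows changed of all tested (1858 higher, 1711 lower), 13 other pathway genes (11 higher), 11 higher and 5 lower target genes, and 7 higher p62 and aPKC partner genes. With a minimum mean of 50, which tests fewer genes, 4 other pathway genes changed by more than 0.5, and Il1a, Irak3 and Tlr5 gave no value. Target genes that fell numbered 1 to 3 when each library was left out. No scaling moved the median of all rows by 0.1. Same-numbered libraries had correlations of -0.0074, 0.030 and -0.020 after group means were removed, and 4-OHT replicate 1 correlated most with vehicle replicate 3 (0.047), so the numbers show no pairing. The fit with the replicate block gave 22 members and 5637 rows in all, edgeR 24 and 5780, and DESeq2 21 and 5208. Depth limits Il1a, Irak3, Tlr5, Map3k14 and Nfkbie most. In vehicle replicates 1, 2 and 3 Nfkbie had 86, 122 and 59 reads, and Map3k14 had 92, 137 and 84.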

Other observations

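Target genes below the filter were left untested, and their whole reads in vehicle replicates 1, 2 and 3 and then 4-OHT replicates 1, 2 and 3 were as follows. The neutrophil growth factor gene Csf3 had 1, 2 and 3 and then 7, 17 and 23 reads. The monocyte chemokine gene Ccl2 had 0, 2 and 0 and then 7, 4 and 18. Lcn2, which encodes the iron-binding defense protein lipocalin 2, went the other way, with 7, 9 and 10 and then 0, 2 and 0. Il1b, the interleukin-1β gene, had at most 3 reads in any library. Ccl20 had 5, 16 and 2 and then 17, 10 and 5, and Vcam1 had 2, 1 and 1 and then 1, 3 and 10. The groups of Ccl20 and Vcam1 overlapped. For Csf3 and Ccl2 each 4-OHT library was above each vehicle library, and for Lcn2 each was below. Of all rows tested, 26.8% lay above and 25.3% below in this way. Those rows passed the filter that Csf3, Ccl2 and Lcn2 did not, so the shares are not a background for genes with so few reads. All of these genes were picked with their values in view. The stromal and vessel markers were highest in 4-OHT replicate 3, as Ccl2 and Csf3 were, and their part in these values was not tested.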
